A study of Mus musculus with 2 samples.

Results

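Enteroendocrine cells, the hormone-secreting cells of the intestinal lining, were examined in a pair of mouse small intestine single-cell libraries. A barcode counted as an enteroendocrine cell when it had at least 1000 unique molecular identifiers (UMIs, counted transcript molecules), at least 300 genes, at most 50% mitochondrial UMIs, an Epcam UMI and no Ptprc UMI. It also needed at least 5 UMIs summed over Chgb, Chga, Cpe, Pcsk1, Scg5 and Neurod1, with at least 2 of these 6 genes detected. Barcodes with 5 or more UMIs of the tuft genes Dclk1, Trpm5 and Avil, or 15 or more of the goblet genes Muc2, Fcgbp and Clca1, were left out. The rule found 66 cells among 12652 barcodes, 29 in the Tg library and 37 in the FMTg library.

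The Tg mouse was Mdm2+/- Cag-CreERTg and the FMTg mouse was Mdm2FM/- Cag-CreERTg, so both carried the "-" allele of Mdm2, the Cre transgene and the tamoxifen exposure. Both were C57BL/6j mice of 60 days. A single tamoxifen dose of 6 mg for 40 g of body mass was injected, and cells were collected 24 hours later. The labels describe loss of Mdm2 with acute p53 activation in FMTg and retained Mdm2 in Tg. CAG is a promoter active in most cell types, so the recombinase was not limited to enteroendocrine cells. Each group had 1 library, so no difference below has a replicate check or a test, and the intervals, all at 95%, cover only the error of counting.

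Enteroendocrine cells arise from crypt progenitors through the transcription factors Neurog3 and Neurod1, pack peptide hormones with chromogranins and secretogranins into dense-core granules, and release them when nutrients or microbial products reach their receptors. Enterochromaffin cells make serotonin through Tph1, and other types are known by somatostatin (Sst), gastric inhibitory polypeptide (Gip), cholecystokinin (Cck), ghrelin (Ghrl), secretin (Sct), glucagon-like peptides (Gcg), peptide YY (Pyy) or neurotensin (Nts). Mdm2 is the ubiquitin ligase that holds p53 in check and is itself a p53 target, and p53 switches on genes of cell cycle arrest, apoptosis and repair.

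Promoters of hormone and granule genes are shown because the results on hormone types and granule proteins turn on the transcripts of these genes. They are the 140 bases before the start site, 5′ to 3′ on the gene's strand, from RefSeq on GRCm38.p6, with matches in capitals: the cyclic AMP response element TGACGTCA, its first part TGACG (which lies within the full element), the E-boxes CAGATG and CAGCTG, and TATAAA, all searched on both strands. Sst is at chr16:23890845-23890984 on the minus strand, Chgb at chr2:132781502-132781641 on the plus strand, and Scg2 at chr1:79440027-79440166 on the minus strand. Chga is at chr12:102554801-102554940 on the plus strand, Cck at chr9:121495695-121495834 on the minus strand, Sct at chr7:141279134-141279273 on the minus strand, and Gip at chr11:96024405-96024544 on the plus strand.
Sst: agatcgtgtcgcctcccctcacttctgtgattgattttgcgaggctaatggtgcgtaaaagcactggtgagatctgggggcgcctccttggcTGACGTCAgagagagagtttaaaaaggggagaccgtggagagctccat
Chgb: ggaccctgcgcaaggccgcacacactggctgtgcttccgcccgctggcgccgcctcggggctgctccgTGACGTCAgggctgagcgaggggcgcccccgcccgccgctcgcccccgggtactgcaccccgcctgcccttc
Scg2: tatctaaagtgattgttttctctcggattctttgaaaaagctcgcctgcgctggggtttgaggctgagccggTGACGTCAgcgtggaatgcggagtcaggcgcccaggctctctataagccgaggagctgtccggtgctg
Chga: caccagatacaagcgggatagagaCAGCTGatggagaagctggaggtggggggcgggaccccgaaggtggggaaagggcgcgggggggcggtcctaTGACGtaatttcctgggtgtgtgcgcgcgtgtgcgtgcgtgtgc
Cck: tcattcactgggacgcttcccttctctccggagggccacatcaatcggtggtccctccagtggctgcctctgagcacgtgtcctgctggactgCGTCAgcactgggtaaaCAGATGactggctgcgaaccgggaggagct
Sct: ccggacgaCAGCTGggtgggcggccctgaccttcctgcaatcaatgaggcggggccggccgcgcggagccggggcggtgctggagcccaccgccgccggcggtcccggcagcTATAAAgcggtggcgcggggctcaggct
Gip: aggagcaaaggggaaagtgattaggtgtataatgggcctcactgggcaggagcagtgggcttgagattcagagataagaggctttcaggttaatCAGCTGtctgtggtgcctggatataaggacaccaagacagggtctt
The full element starts 48 bases before the start of Sst, 72 before Chgb and 68 before Scg2. Of the element Chga carries only TGACG, 44 bases before its start, and Cck carries it on the other strand, read as CGTCA. Gip shows a CAGCTG match 46 bases before its start, and Sct has TATAAA 28 bases before. Of 40 genes looked up (hormone and granule genes, the genes of the marker rule and Tph1), 35 had a promoter in the RefSeq table, with 44 promoters among them. Of these 35 genes 4 held the full element in any of their promoters (Chgb, Pcsk1, Scg2 and Sst). Among 32851 mouse promoters of the same length, 1.33% held TGACGTCA, 12.8% TGACG, 8.22% CAGATG, 7.83% CAGCTG and 7.21% TATAAA. These are shares of promoters and not of genes. A match is a description of the letters and not a shown binding site.

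The libraries held 6270 Tg and 6382 FMTg barcodes, of which 4258 and 5122 passed the filters and 1388 and 2188 were Epcam-positive and Ptprc-negative. The 29 Tg members had 2175 to 67961 UMIs (median 8681), and the 37 FMTg members 1048 to 55219 (median 14682). Median mitochondrial shares were 23.4% and 19.8%. Enterocyte marker UMIs, from 24 genes of absorptive cells, made up a median of 0.828% of a member's UMIs in Tg and 3.05% in FMTg, and exceeded 5% in 8 and 14 members. The part of this RNA in the results below was not tested, and values without those members are given for some genes and lists only. The libraries shared 14 barcodes, none of them a member.

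The cells were checked against the enteroendocrine markers Chga, Chgb, Neurod1, Scg5 and Pcsk1. Chgb UMIs were present in 28 of 29 Tg and 33 of 37 FMTg members, and Chga UMIs in 23 and 30. Neurod1, the transcription factor of early and mature enteroendocrine cells, was detected in 21 and 29 members, against 0.52% and 0.42% of other epithelial barcodes. These genes chose the cells, so their enrichment is a description. In 5 FMTg members and no Tg member the label was not borne out: Cpe gave 4 to 5 of their 5 to 7 marker UMIs, Chga, Chgb and Neurod1 together gave at most 1, and no hormone gene exceeded 2 UMIs. Those 5 barcodes were deep (16947 to 55219 UMIs) and held 5.73% to 12.9% enterocyte marker UMIs. Near the threshold, 1 Tg and 3 FMTg members had exactly 5 marker UMIs, and 13 FMTg but no Tg epithelial barcodes had 4.

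Genes outside the rule also stood above other epithelial barcodes. Of 2682 genes with at least 20 UMIs in the members of each library, 249 were at least 2-fold and 99 at least 8-fold above other epithelial barcodes in both. The granule protein Pcsk1n, an inhibitor of the prohormone convertase PC1/3, was at 242 CPM (UMIs per 1000000 of the members' total) in Tg and 157 in FMTg. Snap25, a membrane protein of vesicle fusion, was at 140 and 200 CPM, with UMIs in 21 and 28 members. The neuronal calcium channel subunit Cacna2d1 was at 165 and 153 CPM, and the voltage-gated sodium channel Scn3a at 104 and 163. Ambp, a secreted protease inhibitor, was at 272 and 499 CPM. The imprinted gene Peg3 was at 260 and 191 CPM, and Insm1, a zinc finger transcription factor of endocrine differentiation, at 52.1 and 48.9.

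**Figure D1:**
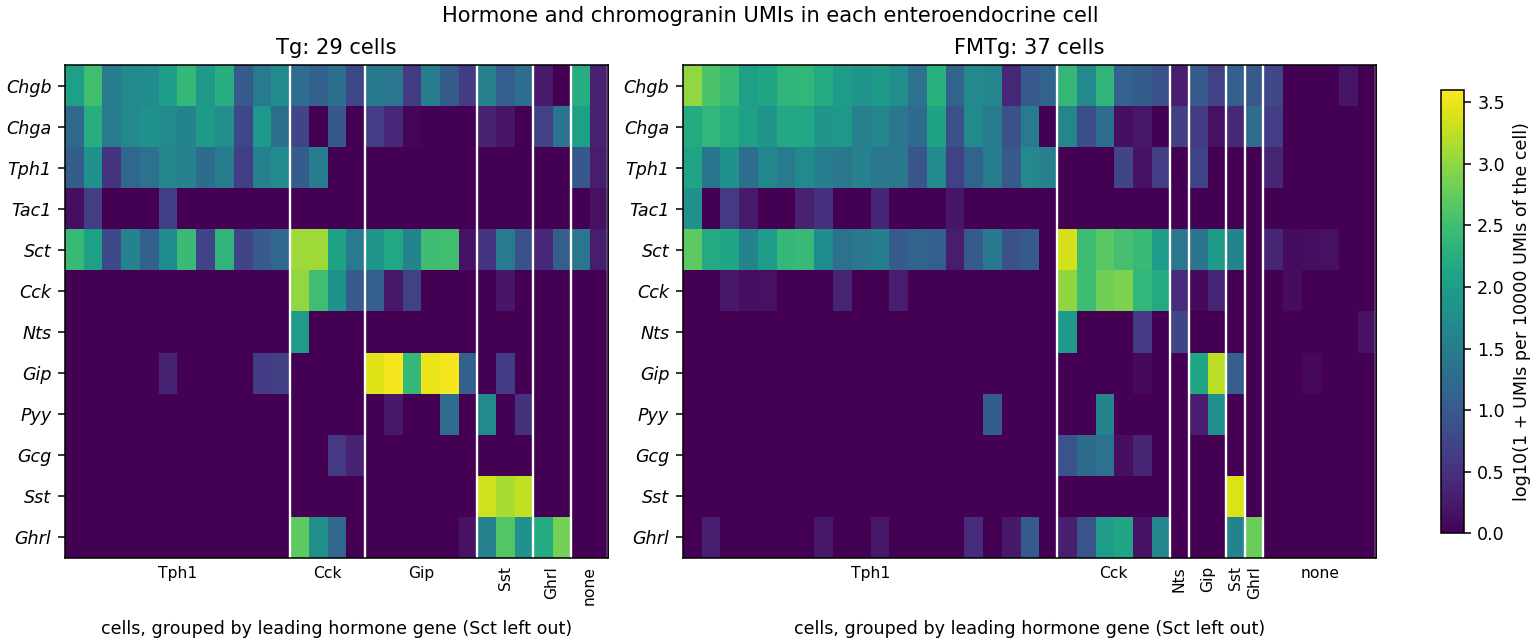
Each column is 1 cell and each row a hormone or chromogranin gene, coloured by log10 of 1 plus its UMIs per 10000 UMIs of the cell, for 29 Tg cells (left) and 37 FMTg cells (right) grouped by leading hormone gene with Sct left out. Sct runs across nearly all groups, Gip and Sst are high in few cells, and 6 FMTg and 2 Tg cells at the right edge have no leading hormone.

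Hormone type was first assigned by the gene with the most UMIs, at least 10, among 13 hormone genes. By this rule Sct led in 12 Tg and 13 FMTg cells, Gip in 6 and 2, Tph1 in 3 and 7, Sst in 3 and 1, Ghrl in 2 and 1, and Cck in 0 and 4, while 3 and 9 had no leading hormone. No cell was led by Gcg, Pyy, Insl5, Nts, Tac1, Nmb or Nmu. Sct UMIs were present in 29 of 29 Tg and 33 of 37 FMTg members, so it covered other hormones. With Sct set aside and a minimum of 5 UMIs, a rule added after the data had been seen, the 12 Sct-led Tg cells divided into 8 Tph1-led and 4 Cck-led cells. The 13 Sct-led FMTg cells divided into 10 led by Tph1, 2 by Cck and 1 by Nts. The types below follow this second rule.

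Tph1-led cells, the enterochromaffin type, were the most frequent at 12 of 29 in Tg (41.4%, exact Clopper-Pearson interval 23.5 to 61.1) and 20 of 37 in FMTg (54.1%, 36.9 to 70.5). Gip-led cells made up 20.7% of Tg and 5.41% of FMTg members, a difference of -15.3 percentage points (Newcombe interval -34.9 to 2.74). Cck-led cells numbered 4 and 6, Sst-led cells 3 and 1, Ghrl-led cells 2 and 1, and 1 FMTg cell was led by Nts. The Nts-led cell held 5 Nts, 26 Sct and 10 marker UMIs, and the highest enterocyte marker share of all members. Other epithelial barcodes held at most 3 Nts UMIs in either library. Of the Tg Cck-led cells 1 held only 8 Cck and 5 marker UMIs, with 8.09% enterocyte marker UMIs. Other Tg epithelial barcodes held up to 17 Cck UMIs, and Tg Ptprc-positive, Epcam-negative barcodes up to 2. Cells with no leading hormone numbered 2 in Tg and 6 in FMTg, and 5 of the 6 were those with Cpe as main marker. With all members the intervals of these differences included 0, so no shift in hormone types was detectable with these cell numbers. Among members of at most 25% mitochondrial UMIs, 6 of 18 Tg and 1 of 24 FMTg cells were led by Gip, a difference of -29.2 points whose interval of -55.2 to -2.96 did not include 0. This was the only such interval among the settings and types looked at, where the second rule was run on all members only. For Gip with doublets removed it was -29.9 to 11.1. Of the 6 Gip-led Tg cells 1 held only 24 Gip UMIs.

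**Figure D2:**
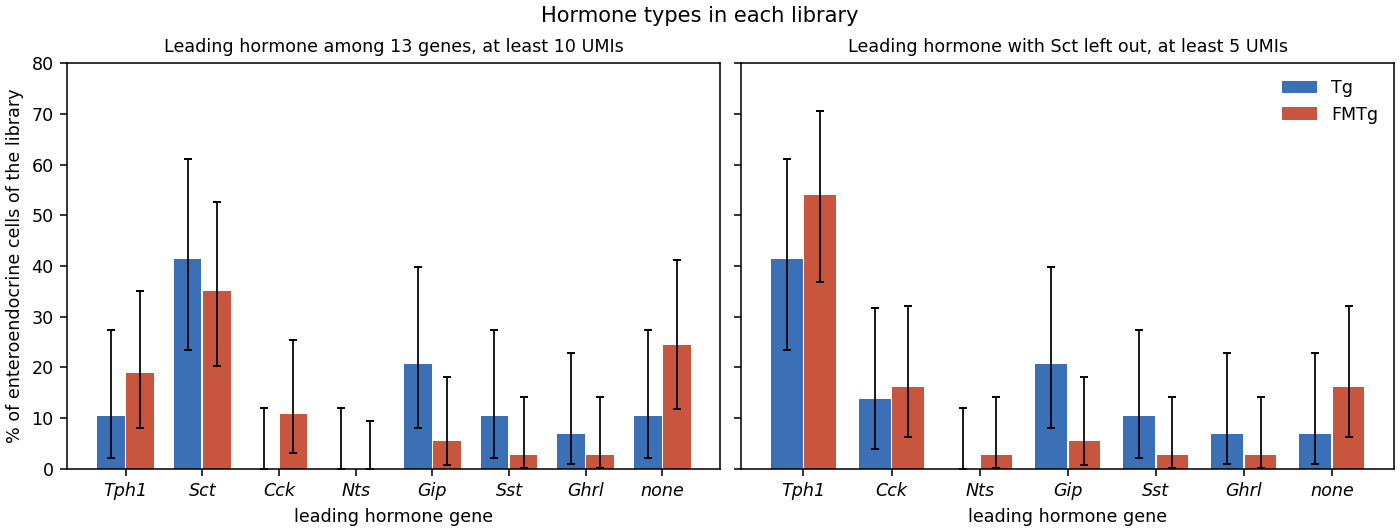
Bars give the share of enteroendocrine cells led by each hormone gene in Tg (29 cells) and FMTg (37 cells), with exact 95% Clopper-Pearson intervals, by the rule with 13 hormone genes (left) and with Sct left out (right). Leaving out Sct turns its cells mostly into Tph1-led ones, 41.4% of Tg and 54.1% of FMTg cells, and all intervals of the pairs overlap.

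Hormones were often found together. At a minimum of 10 UMIs each, 17 of 29 Tg and 23 of 37 FMTg cells held at least 2 hormone genes, or 8 and 10 with Sct set aside. Of 14 Tg and 22 FMTg cells with at least 5 Tph1 UMIs, 11 and 18 also had at least 5 Sct UMIs, and in 10 and 12 Sct exceeded Tph1. Every cell with at least 10 Cck UMIs (5 and 6) had at least 10 Sct UMIs. Ghrl reached 10 UMIs in 7 and 6 cells, together with Sst in 3 and 1 and with Cck in 2 and 4. All 3 Tg Sst-led cells and the FMTg one carried Ghrl, at 28, 58 and 676 UMIs in Tg and 54 in FMTg. Low hormone counts are within the background of the libraries: Sct had a UMI in 38.3% and 33.5% of other epithelial barcodes and in 14.2% and 11.6% of Ptprc-positive, Epcam-negative barcodes (median 4207 and 4094 UMIs), which should lack it. In those Ptprc-positive barcodes a Tg cell held at most 3 Sct UMIs and an FMTg cell at most 23.

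Lmx1a, Trpa1 and Scn3a UMIs were found mainly in Tph1-led cells of both libraries. Tph1, the rate-limiting enzyme of serotonin synthesis outside the brain (chr7:46644641-46672537, GRCm38), had 7 to 59 UMIs per Tg cell (median 14) and 5 to 154 per FMTg cell (median 34). Chgb ranged from 9 to 596 UMIs (median 78) in Tg and from 1 to 1276 (median 134) in FMTg, and Chga from 5 to 159 (median 41) and 0 to 275 (median 78.5). The ranges overlapped for all 3 genes. Tph1 chose these cells, and Chgb and Chga were among the genes that chose all members, so these counts are a description. Median depth was 8377.5 UMIs in the Tg and 13022 in the FMTg cells. Lmx1a, a homeobox factor of enterochromaffin cells, had all of its 12 Tg and 40 FMTg UMIs in Tph1-led cells. The irritant channel Trpa1 had 16 of 17 and 57 of 59 UMIs there, and Scn3a 42 of 46 and 103 of 110. Reg4, a secreted lectin, had 809 of 830 and 1462 of 1462, but 1 cell gave 85.4% of the Tg UMIs. Afp (alpha-fetoprotein) had 228 and 185 UMIs, all in Tph1-led cells, with 90.8% of the Tg UMIs in 1 cell. Tac1, the substance P precursor, had 8 of 10 and 94 of 94 UMIs in these cells, with 85.1% of the FMTg UMIs in 1.

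Cck-led cells held Sct beside Cck, and Scg2 UMIs were found mainly in these cells. Cck had 8 to 1974 UMIs per Tg cell (median 88.5) and 44 to 2023 per FMTg cell (median 983), and Sct 23 to 2282 (median 318.5) and 26 to 4627 (median 889). Scg2 (secretogranin II) had 82 of 118 Tg and 294 of 310 FMTg UMIs in these cells and none in Tph1-led cells of either library. Ffar1, a receptor for long-chain fatty acids, had 10 of 20 and 47 of 51 in Cck-led cells, and the other 10 Tg UMIs were in 4 Gip-led cells. Gcg was found in 2 of 4 Tg cells with 1 UMI each and in 5 of 6 FMTg cells with 94 UMIs in sum, 60.6% of them in 1 cell. Nts had all of its 187 Tg UMIs in 1 Cck-led cell and 170 of 188 FMTg UMIs in another. Etv1, an ETS factor, had 14 of 18 and 31 of 34 UMIs in Cck-led cells, and Onecut3, a homeobox factor, 23 of 26 and 10 of 27. Tph1-led cells held 3 and 17 Onecut3 UMIs, and 1 cell gave 69.2% of its UMIs in Tg and 1 gave 51.9% in FMTg.

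Gip-led and Sst-led cells were chosen by their own hormone, so its counts there are a description. Gip had 24 to 4555 UMIs per Tg cell (median 2038), and the FMTg pair had 564 and 3713. The Tg cell with 24 Gip UMIs, among 20658 UMIs, was near the background of the libraries. Other Tg epithelial barcodes held at most 22 Gip UMIs, and Ptprc-positive, Epcam-negative barcodes at most 3 in Tg and 24 in FMTg. Isl1, a LIM homeobox factor, had 35 of 76 Tg and 10 of 44 FMTg UMIs in Gip-led cells, Pax6 21 of 38 and 6 of 27, and Rfx6, a winged-helix factor of endocrine fate, 29 of 31 and 2 of 16. Rbp4 (retinol-binding protein 4) had 222 of 290 and 53 of 158 UMIs there, and 29 and 98 in Cck-led cells. Rgs4, a regulator of G protein signalling, had 39 of 60 and 4 of 5, and Fabp5, a fatty acid binding protein, 667 of 700 and 41 of 70. Sst-led cells held Sst at 791, 2180 and 3336 UMIs in Tg and 3434 in FMTg. Hhex, a homeobox factor of somatostatin cells, had all of its 17 and 9 UMIs there. Iapp (amylin) had 216 of 218 and 224 of 224 UMIs in Sst-led cells, and Asic5, an acid-sensing channel family member, 90 of 92 and 67 of 67. Ghrl-led cells held 182 and 203 Ghrl UMIs in Tg and 199 in FMTg, with no Neurod1 UMI in any of the 3.

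**Figure D3:**
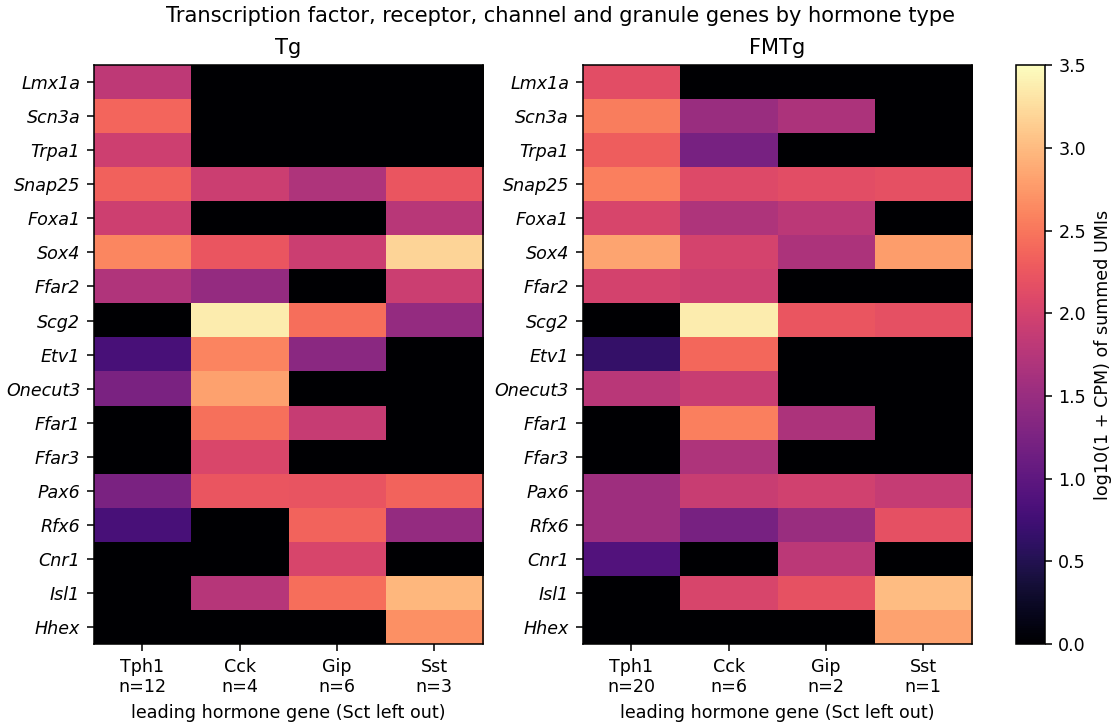
Rows are transcription factor, receptor, channel, granule and vesicle genes and columns the 4 larger hormone types, coloured by log10 of 1 plus the CPM of summed UMIs, for Tg (left) and FMTg (right) with cell numbers under each column. Lmx1a, Scn3a and Trpa1 stand in the Tph1 column, Scg2 and Etv1 in the Cck column, Ffar1 in the Cck and Gip columns, and Hhex in the Sst column of both libraries, while the Sst column rests on 3 Tg cells and 1 FMTg cell.

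The share of enteroendocrine cells was 2.09% of epithelial barcodes in Tg (29 of 1388, exact interval 1.40 to 2.99) and 1.69% in FMTg (37 of 2188, 1.19 to 2.32). The difference of -0.398 percentage points had a Newcombe interval of -1.42 to 0.534, so none was detectable. As a share of all barcodes that passed the filters the values were 0.681% and 0.722%. Thinned to 1000 UMIs per barcode, 14 Tg (1.01%) and 23 FMTg (1.05%) barcodes met the rule. With mitochondrial shares of at most 25%, 18 of 645 Tg (2.79%) and 24 of 572 FMTg (4.20%) did, which turned the sign of the difference to 1.41 points, with an interval of -0.769 to 3.69.

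For FMTg against Tg, UMIs were summed over the members of each library and set against their total. Of 5733 genes with at least 20 UMIs, 535 (9.33%) stood at least 2-fold above Tg in FMTg and 277 (4.83%) at least 2-fold below, and the median log2 ratio was 0.09. The log2 ratio was above 0 for 3220 of the 5733. Counts of 2-fold changes in the gene lists of all members below stand beside these shares of 9.33% higher and 4.83% lower, and several are near them. Of a list of 50 genes known as p53 targets, 35 had at least 20 UMIs, of which 15 (against 9.33% of all genes) were higher by 2-fold or more and 0 lower by that much. Their median log2 ratio was 0.77 (quartiles 0.44 and 1.14), and 29 of the 35 were above 0 (against 3220 of all 5733 genes). In other epithelial barcodes the list's median was 0.53 over 48 measured genes in place of 35, and the difference between these medians was not tested.

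Mdm2 (chr10:117688875-117710758, GRCm38) had 55 UMIs in 18 Tg members and 172 in 29 FMTg members, a log2 ratio of 1.03 (0.59 to 1.5). Its log2 ratio in other epithelial barcodes was 0.92. The sources used here do not say whether these 3′ counts fall in a recombined part of the gene, so Mdm2 does not check the genotype labels. Cdkn1a (chr17:29090976-29100727), the p21 inhibitor of cyclin-dependent kinases, had 241 UMIs in 26 and 621 in 35 members, a log2 ratio of 0.75 (0.54 to 0.97). Ccng1, cyclin G1, had 66 UMIs in 13 and 238 in 29 members, a log2 ratio of 1.24 (0.84 to 1.65) against 0.63 in other epithelial barcodes. Trp53 itself had 4 and 10 UMIs, with an interval from -1.08 to 2.84.

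Several apoptosis genes among the p53 targets were higher in FMTg. Bax, which permeabilises mitochondria, had 54 and 168 UMIs, a log2 ratio of 1.03 (0.58 to 1.5) where other epithelial barcodes gave 0.11. Apaf1, the apoptosome scaffold, had 21 and 72 UMIs (1.17), and Pmaip1 (Noxa, a BH3-only protein) 19 and 72 (1.31). Eda2r, a death receptor family member on chromosome X, had 3 and 31 UMIs, a log2 ratio of 2.76 with an interval from 1.08 to 5.11. Stress regulators were also higher, with Trp53inp1 at 25 and 112 UMIs (1.55), Sertad1, a transcriptional coregulator, at 6 and 37 (2.01) and Sesn2, a sestrin that restrains mTORC1, at 7 and 35 (1.71). The ribosomal protein paralog Rps27l had 178 and 416 UMIs (0.61), and Zmat3, an RNA-binding target, 19 and 57 (0.97). For other targets the counting interval included 0: Btg2, an antiproliferative gene, had 235 and 382 UMIs (0.09, -0.15 to 0.33), Plk2, a polo-like kinase, 30 and 42 (-0.13), and Sesn1 17 and 16 (-0.70, -1.78 to 0.37).

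**Figure D4:**
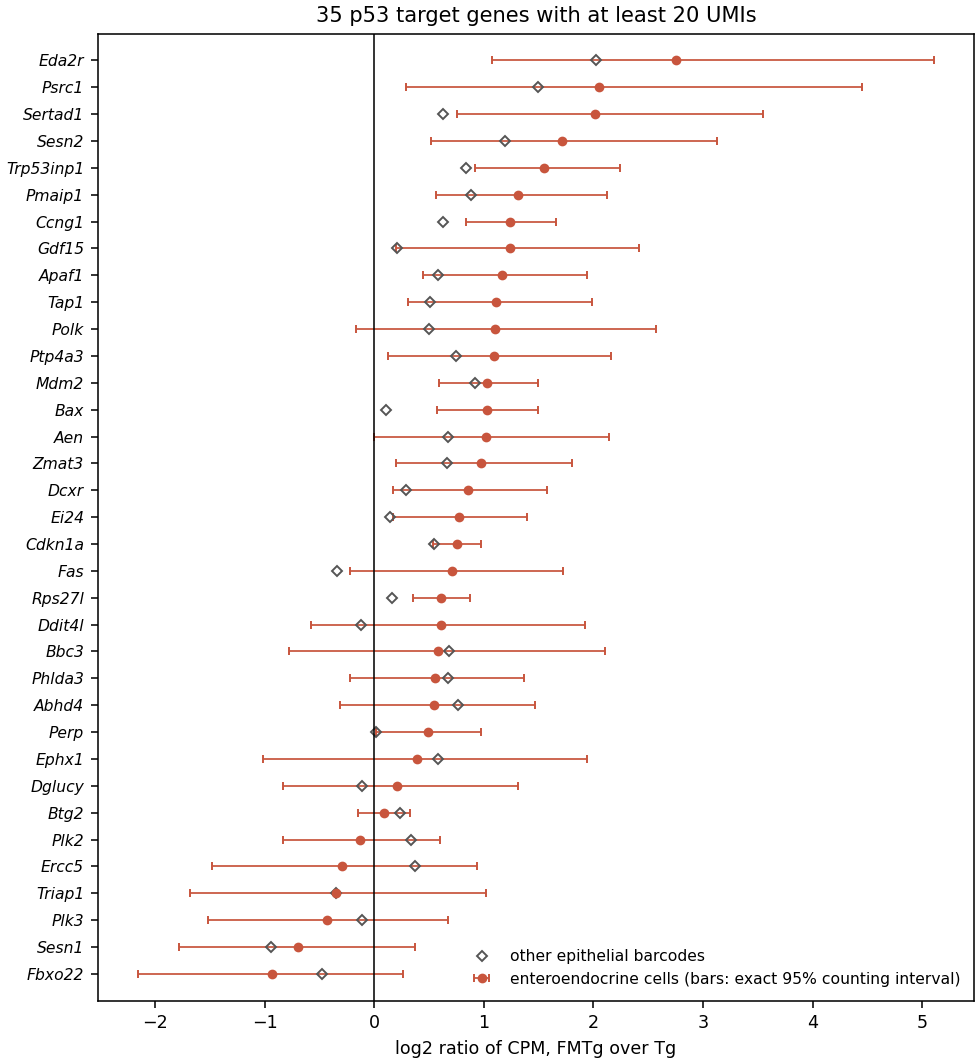
Points give the log2 ratio of CPM, FMTg over Tg, for 35 p53 target genes with at least 20 UMIs in the enteroendocrine cells, bars the exact 95% counting intervals, and open diamonds the same ratio in other epithelial barcodes. Of the points 29 lie above 0 (against 3220 of all 5733 genes), and Ccng1 (1.24 against 0.63) and Bax (1.03 against 0.11) lie well to the right of their diamonds.

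Cell by cell, the p53 list made up 1100 to 9103 UMIs per 1000000 in Tg members (median 2951) and 1233 to 13210 in FMTg members (median 4815), so the libraries overlapped. In Tph1-led cells the medians were 3406 (1100 to 9103) and 5372 (1579 to 13210), and 5 FMTg cells exceeded the highest Tg value. Summed over Tph1-led cells the list gave 3712 CPM in Tg and 5882 in FMTg, and over Cck-led cells 2314 and 4957. Gip-led cells gave 2730 and 4020 CPM and Sst-led cells 3033 and 3219, with only 1 FMTg cell in the latter. The order was the opposite in Ghrl-led cells at 2796 and 1233 CPM, from 2 Tg cells and 1 FMTg cell with 42 and 4 UMIs of the list.

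The list was also read in narrower sets of members. Within Tph1-led cells alone (12 and 20), the list's median log2 ratio was 0.72 over 24 genes, with 6 of them (against 11.5% of all genes measured there) at least 2-fold higher and an all-gene median of 0.22. Cdkn1a stood at 0.92, Ccng1 at 0.89 and Mdm2 at 0.67. Without the members of more than 5% enterocyte RNA (21 and 23 left), the median was 1.30 over 21 genes, 14 of them (against 13.2% of all genes) at least 2-fold higher, and the all-gene median was 0.14. With both restrictions, in 8 Tg and 15 FMTg cells, it was 1.06 over 14 genes, 8 of them (against 20.5% of all genes) at least 2-fold higher, and the all-gene median was 0.30. Depth also differed, so members were thinned to 2000 UMIs, which left out 1 FMTg cell. A Ccng1 UMI was then found in 24.1% of Tg and 50% of FMTg members (44.8% and 78.4% unthinned), and a Mdm2 UMI in 27.6% and 41.7% (62.1% and 78.4%). A Cdkn1a UMI was found in 72.4% and 77.8% (89.7% and 94.6% unthinned). In Ptprc-positive, Epcam-negative barcodes thinned alike, these shares were 12.2% and 15.8% for Ccng1, 12.6% and 13.3% for Mdm2, and 10.7% and 11% for Cdkn1a.

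**Figure D5:**
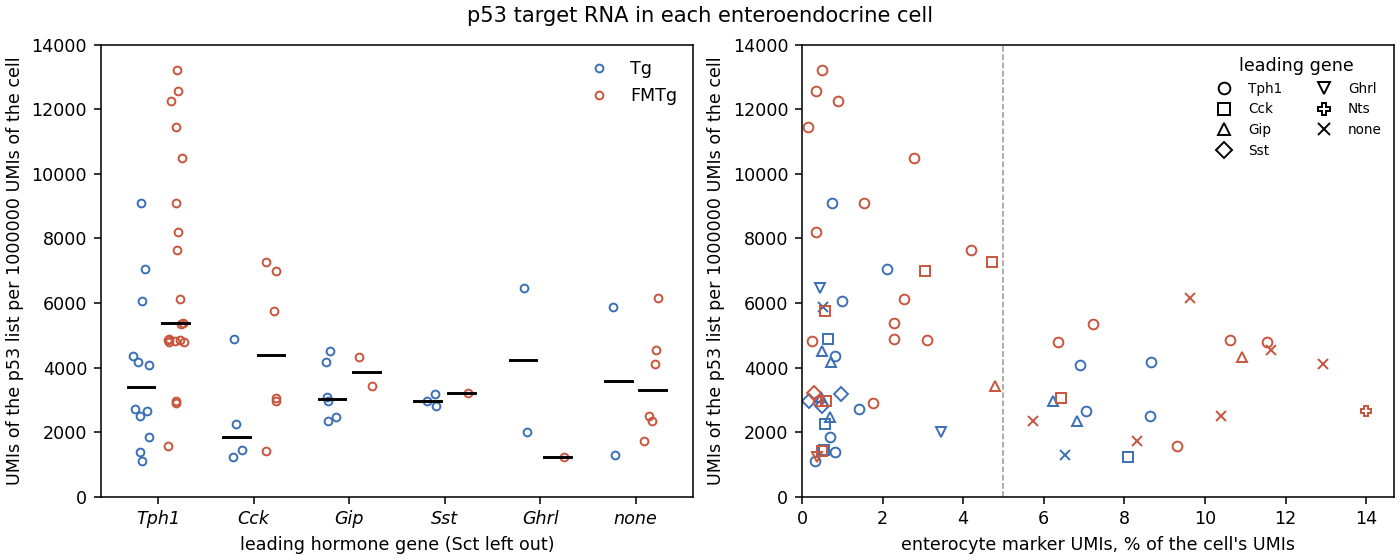
The left panel shows each cell's UMIs of the 50-gene p53 list per 1000000 of its UMIs by leading hormone gene (points are cells, lines medians, and the single Nts-led cell is not drawn). The right panel sets the same value against the cell's share of enterocyte marker UMIs, with a dashed line at 5%. Both libraries overlap, and the highest values belong to FMTg Tph1-led cells left of the line.

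Outside the p53 list, 10 of 18 pro-apoptotic genes were measured, with a median log2 ratio of -0.17, 2 at least 2-fold higher and 0 lower. Bok, a Bcl2 family effector, had 3 UMIs in Tg and 35 in FMTg (2.93, 1.27 to 5.28), and the effector Bak1 27 and 101 (1.29, 0.67 to 1.96), against 0.24 for Bak1 in other epithelial barcodes. Of 6 measured anti-apoptotic genes all were above 0 (against 3220 of all 5733 genes), with a median of 0.38 and none at least 2-fold higher. Mcl1, just under that size, had 57 and 174 UMIs (1.0, 0.56 to 1.46), and Bcl2l1, which encodes Bcl-xL, 15 and 43 (0.91, 0.03 to 1.86). Of 36 cell cycle genes 1 reached 20 UMIs, so these cells gave no measure of cycling. Ccnd2, a D-type cyclin, had 17 and 83 UMIs (1.68, 0.91 to 2.52), of which 17 and 78 were in Tph1-led cells.

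The genes that chose the cells were all higher in FMTg, at 6656 CPM in sum in Tg and 11760 in FMTg, which is a description. Chgb had 1787 UMIs in Tg and 4979 in FMTg (log2 ratio 0.87), Chga 784 and 2112 (0.82), Cpe 127 and 328 (0.76), Neurod1 120 and 289 (0.66), Scg5 41 and 96 (0.62) and Pcsk1 82 and 138 (0.14). Of 13 granule proteins outside the rule 10 were measured, with a median of -0.33, 0 at least 2-fold higher and 2 lower. That median turned to 0.45 over 7 genes in Tph1-led cells alone (0.22 over all genes there), and to 0.02 without the 5 members with Cpe as main marker. Pcsk1n had 107 and 106 UMIs (-0.63, -1.03 to -0.22) and Cadps, which primes dense-core vesicles, 39 and 24 (-1.31, -2.11 to -0.54). Scg2 had 118 and 310 (0.78), but 58.5% of the Tg UMIs were in 1 cell and the ratio turned to -0.73 without the members of high doublet score. Among 9 measured genes of prohormone processing the median was 0.12 with none past 2-fold, and carboxypeptidase D (Cpd) had 28 and 81 UMIs (0.92). Among 16 exocytosis genes the median was -0.10. Nsf, the ATPase that recycles fusion complexes, had 12 and 41 UMIs (1.16, 0.20 to 2.22), and Cplx2, a complexin, 37 and 28 (-1.01, -1.78 to -0.27).

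Hormone transcripts were carried by few cells, so their sums differ with single cells. Gip had 14039 UMIs in 10 Tg members and 4294 in 5 FMTg members, 86.5% of the latter in 1 cell (log2 ratio -2.32). Sst had 6307 UMIs in 3 cells and 3434 in 1 (-1.49), and Ghrl 2157 in 9 and 681 in 14 (-2.28). Sct had 5861 and 10272 UMIs (0.20) and Cck 2204 and 6362 (0.92), with 89.6% of Tg Cck in 1 cell. When the members with high doublet scores were left out (4 Tg and 9 FMTg), the log2 ratio of Sct turned to -0.89 and that of Cck to -1.32. Gcg was at 2 and 94 UMIs (4.94, 3.05 to 8.01) and Pyy at 93 and 168 (0.24), with 84.9% and 78.0% of Pyy in 1 cell each. These sums mix the number of cells of a type with the amount per cell.

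Tph1, Slc18a1 and Gch1, of serotonin synthesis and storage, were higher in FMTg. Tph1 had 328 UMIs in 16 Tg members and 885 in 25 FMTg members (0.82, 0.64 to 1.01). Within Tph1-led cells its log2 ratio was 0.91, which is a description because Tph1 counts chose these cells. Slc18a1, the vesicular monoamine transporter, had 52 and 148 UMIs (0.90, 0.43 to 1.38), and Gch1, which makes the cofactor of Tph1, 26 and 90 (1.18, 0.54 to 1.87). Ddc, the decarboxylase of the second step, had 112 and 130 UMIs (-0.40, -0.77 to -0.02), but 55 and 98 in members of at most 5% enterocyte RNA, where the ratio was 0.08. Maoa, which degrades serotonin, had 119 and 26 UMIs (-2.81, -3.48 to -2.18). Maoa was at -1.63 in other epithelial barcodes, and in members of at most 5% enterocyte RNA it had 18 and 14 UMIs. Of 6 measured serotonin genes 1 was at least 2-fold higher and 1 lower, with a median of 0.65.

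Of 26 enteroendocrine transcription factors 19 were measured, with a median of -0.27, 2 at least 2-fold higher and 4 lower. Isl1, Rfx6 and Pax6, which in Tg were found mostly in Gip-led and Sst-led cells, were lower in FMTg. Isl1 stood at 76 and 44 UMIs (-1.40, -1.97 to -0.85), Rfx6 at 31 and 16 (-1.57) and Pax6 at 38 and 27 (-1.11). The part of the numbers of Gip-led and Sst-led cells in this was not tested. In FMTg, Pax6 had 10 UMIs in Tph1-led, 10 in Cck-led, 6 in Gip-led and 1 in Sst-led cells. In Tph1-led cells alone Rfx6 had 1 and 10 UMIs (2.65, -0.16 to 8.09) and Pax6 3 and 10 (1.07, -0.89 to 3.57). Lmx1a of Tph1-led cells had 12 and 40 UMIs (1.12, 0.17 to 2.19). Sox4, expressed in progenitors and in most types here, had 155 and 220 (-0.11). Only 5 of 26 nutrient and microbial sensor genes were measured, with a median of 0.74, 2 at least 2-fold higher and 1 lower. Trpa1 had 17 UMIs in 4 and 59 in 15 members (1.18, 0.38 to 2.05), with 76.5% of the Tg UMIs in 1 cell. Ffar2, a short-chain fatty acid receptor, had 13 and 40 UMIs (1.01), and Ffar1 20 and 51 (0.74, -0.03 to 1.56). Of 7 measured channel genes 0 were at least 2-fold higher and 1 lower, and Scn3a had 46 and 110 UMIs (0.65).

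Stress and defence genes were split. Of 27 measured immediate early and dissociation stress genes 2 were at least 2-fold higher and 4 lower, with a median of -0.25. Hspa1b, an inducible Hsp70, had 63 UMIs in 12 Tg members and 5 in 3 FMTg members (-4.27, -5.94 to -2.97), and was at -2.44 in other epithelial barcodes. The constitutive chaperone Hspa8 had 610 and 551 UMIs (-0.76). Socs3, a feedback inhibitor of cytokine signalling, had 9 UMIs in 5 and 74 in 21 members (2.43, 1.43 to 3.61), and Dusp6, a phosphatase of ERK, 29 and 108 (1.28). Of 20 measured interferon response genes 2 were higher and 4 lower by at least 2-fold. Their median was -0.17, against 0.47 over the 31 genes measured in other epithelial barcodes, so the gene sets differ. Oasl2 had 30 and 97 UMIs (1.08), and Irf7, the interferon regulatory factor, 60 and 128 (0.48).

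Of 21 unfolded protein response genes 1 was at least 2-fold higher and 1 lower, with a median of -0.29. The chaperone Hspa5 (BiP) had 227 and 263 UMIs (-0.40), and Edem1, which helps clear misfolded glycoproteins, 13 and 49 (1.30, 0.40 to 2.31). Of 57 nuclear genes of oxidative phosphorylation 0 were at least 2-fold higher and 1 lower, with a median of -0.33 against -0.51 in other epithelial barcodes. Of 20 antioxidant genes 0 were higher and 4 lower by that size. Prdx1, a peroxiredoxin, had 365 and 211 UMIs (-1.40, -1.65 to -1.15) and Gstp1, a glutathione transferase, 107 and 43 (-1.93). In members of at most 5% enterocyte RNA, the median of 17 measured antioxidant genes was 0.53, against 0.14 over all genes.

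Ubd, Duoxa2 and Tgm2 stood highest in FMTg against Tg, and Hspa1b, Rgs4 and Fabp5 lowest. The 10 highest log2 ratios, among 2909 genes ranked, were those of Ubd, Duoxa2, Tgm2, Clca4a, Gml2, 2010109I03Rik, S100g, Atp10b, Duox2 and Slc28a2. Ubd, a ubiquitin-like protein induced by cytokines, had 1 UMI in Tg and 94 in FMTg (5.94, 3.43 to 11.26), 53.2% of them in 1 cell. Tgm2, transglutaminase 2, had 4 UMIs in 3 and 123 in 20 members (4.33, 2.94 to 6.23), and in members of at most 5% enterocyte RNA 0 and 18. Duoxa2 and Duox2, a maturation factor and its hydrogen peroxide-producing oxidase, had 1 and 62 UMIs (5.34, 2.81 to 10.67) and 5 and 63 (3.04). S100g, the calcium carrier calbindin-D9k, had 13 and 182 UMIs (3.20), and 173 of the FMTg UMIs were in Tph1-led cells. It was lower in FMTg in other epithelial barcodes (-1.47). Gml2 had 0 and 52 UMIs, at least 3.5 log2 units higher against a floor of 3 counts in the library. Clca4a had 15 and 323 UMIs (3.82), 2010109I03Rik 23 and 353 (3.33), Slc28a2, a nucleoside transporter, 28 and 351 (3.04), and Atp10b, a lipid flippase, 17 and 214 (3.04). Under the alternative settings the ratios of these 10 genes stayed above 0, but several varied widely. Ubd ranged from 1.57 to 5.97, Duoxa2 from 1.36 to 6.22 and Tgm2 from 1.83 to 5.10. S100g ranged from 0.30 to 5.17, Clca4a from 0.45 to 6.06 and Slc28a2 from 0.61 to 4.50, while Atp10b ranged from 2.48 to 3.43.

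The 10 lowest were Hspa1b, Rgs4, Fabp5, Maoa, Zg16, Gip, Ghrl, Slc26a3, Apol10a and Ccl25. Rgs4 had 60 UMIs in 8 Tg members and 5 in 2 FMTg members (-4.20), and Fabp5 700 and 70 (-3.93, -4.31 to -3.58), both mostly in Gip-led cells. In Tph1-led cells Fabp5 had 2 and 4 UMIs. Zg16, a goblet lectin, had 113 and 33 UMIs (-2.39) and was at -2.01 in other epithelial barcodes. Ccl25, a chemokine of small intestinal epithelium, had 132 and 46 UMIs (-2.13), Apol10a 125 and 42 (-2.19), and Slc26a3, a chloride and bicarbonate exchanger, 48 and 16 (-2.20). In members of at most 5% enterocyte RNA these last 3 had 9 and 14, 8 and 16, and 1 and 10 UMIs.

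Markers of other cells were read in the same sums. All 24 enterocyte markers were detected, at 47894 CPM in Tg and 64493 in FMTg, with member medians of 8276 and 30453 UMIs per 1000000; 6 were at least 2-fold higher and 3 lower. Apoa4, an apolipoprotein of lipid-loaded enterocytes, had 2774 and 10608 UMIs (1.32), and Ada, adenosine deaminase of the villus tip, 275 and 2540 (2.60). Sis, sucrase-isomaltase, had 535 and 286 UMIs (-1.52). Goblet markers had 4 of 10 genes measured. Tff3, a trefoil peptide of goblet cells, had 588 and 2173 UMIs (1.27), where other epithelial barcodes gave -1.48. Agr2, a goblet disulfide isomerase, had 236 and 318 UMIs (-0.18), 77.5% of the Tg UMIs in 1 cell. Of Paneth markers 1 of 10 was measured (Defa24, 2 and 34 UMIs), of T cell markers 2 of 12, and of tuft, myeloid, stromal and red blood cell markers none.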

How the data were processed

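Small intestine of 1 Tg and 1 FMTg mouse was profiled with the 10x Genomics single-cell protocol, and groups followed the sample labels. The authors deposited raw UMI counts per gene and barcode. Per the submitters' processing notes, CASAVA 1.8.1 and Cell Ranger 3.0 were used with the build mm10. The release of the gene annotation was not given in the sources used here. Of 31053 gene symbols, 30416 matched 1 gene of GENCODE vM21 (GRCm38), from which gene positions were taken.

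The rule for members, the gene lists and the named genes were chosen with earlier results of these data known. Member UMIs were summed per library and scaled to the members' total (CPM). Ratios have exact conditional binomial intervals, sums exact Poisson intervals, shares exact Clopper-Pearson intervals and differences of shares Newcombe intervals, all at 95% and for counting error only. A library at 0 was set to 3 counts, and alternatives in which both libraries held 3 or fewer UMIs of a gene gave no ratio. Genes with at least 20 UMIs over both libraries count as measured. With 1 library per group no test was possible.

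Named genes are the 6 rule genes, the hormones with at least 20 UMIs, Mdm2, Trp53 and Cdkn1a, for each of 33 lists the 4 genes of most UMIs and, among genes of 30 or more, the 4 whose ratio lies farthest from 0, and the 10 highest and 10 lowest ratios among genes with at least 50 UMIs and a UMI in at least 20% of members of the higher library. Not every gene of the rule is reported here, and Apaf1, Bax, Plk2, Pmaip1, Sesn1, Zmat3, Reg4, Afp, Rbp4, Asic5, Ambp, Peg3, Insm1, Hhex, Etv1 and Onecut3 were chosen after their values were seen. Doublets were scored with scanpy 1.11.5; the automatic threshold marked 1 Tg barcode (0.0235%) and 108 FMTg barcodes (2.11%), so doublets were kept, and 214 and 262 barcodes of the highest scores were removed as an alternative only. Scripts ran in Python 3.11.15 with scipy 1.17.1, numpy 2.4.6, matplotlib 3.10.9 and pandas 2.3.3, and in R 4.3.3, with TMM of edgeR 4.0.16 and size factors of DESeq2 1.42.0 as other scalings. The ratio calculation was tested on simulated data.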

Additional observations from a re-analysis of the deposited data

How the results depend on the processing

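Other scalings (TMM, DESeq2 size factors, totals without mitochondrial genes) and a minimum of 3000 UMIs moved none of 90 named gene ratios beyond their counting intervals. Leaving out members over 5% enterocyte RNA moved 39 of 89 beyond them, besides 3 listed below as turned. The like numbers were 31 of 85 with equal weight per hormone type, 29 of 90 with equal weight per cell, 23 of 90 without doublets and 19 of 81 in Tph1-led cells. Other rules for members moved 12 to 18 of 90. The p53 target median stayed above 0 under every alternative run, from 0.72 (Tph1-led cells) to 1.30 (members over 5% enterocyte RNA left out), and was 1.13 with equal weight per hormone type, which rests on 1 type, Sct-led cells. The granule protein median ranged from -0.82 (doublets removed) to 0.45 (Tph1-led cells). The difference in enteroendocrine share was 1.41 points at most 25% mitochondrial UMIs. Genes at least 2-fold higher and lower numbered 270 and 76 at a minimum of 50 UMIs, 839 and 611 at 10 UMIs, and 347 and 141 with equal weight per hormone type. Those lower numbered 168 without members over 5% enterocyte RNA and 115 in Tph1-led cells; these sets test fewer genes. Ratios are listed as turned only where the main counting interval excluded 0. With the other genes counted too, 7 of 90 had the other sign without doublets and 8 of 89 without members over 5% enterocyte RNA. The numbers were 5 of 90 with equal weight per cell, 10 of 85 with equal weight per hormone type and 9 of 81 in Tph1-led cells. Under the other rules for members at most 4 of 90 had the other sign. Without doublets the ratios turned for Scg5 (-0.16), Cck (-1.32), Sct (-0.89) and Scg2 (-0.73). Without members over 5% enterocyte RNA they turned for Ddc (0.077), Slc26a3 (2.57, -0.25 to 8.01) and Apol10a (0.24); Gml2, at 0 and 3 UMIs, gave no ratio there. With equal weight per cell they turned for Sct (-0.040) and Ddc (0.38), and with equal weight per hormone type for Ddc (0.42), Isl1 (2.01, -0.22 to 5.24), Rfx6 (0 and 4 UMIs, at least 0.10), Pcsk1n (0.36), Mcl1 (-0.044), Irf7 (-0.83), Apoa4 (-0.00043) and Pmaip1 (-0.31). In Tph1-led cells they turned for Ghrl (0 and 6 UMIs, at least 0.33), Sct (-0.58), Ddc (0.20), Pax6 (1.07, -0.89 to 3.57), Rfx6 (2.65, -0.16 to 8.09), Fabp5 (0.33, -2.47 to 3.8) and Apoa4 (-0.00027). Of the ratios listed as turned that have a counting interval, it lay wholly on the other side of 0 for Cck, Sct and Scg2 without doublets, Irf7 with equal weight per hormone type and Sct in Tph1-led cells. It included 0 for the rest of those listed. The cause was not tested. The Tph1-led set, the typing without Sct and the set without the 5 members with Cpe as main marker were chosen after seeing the data. No paired analysis was possible because each group has 1 library. With 29 and 37 cells, hormones of rare types rest on single cells.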
